A study of Homo sapiens with 12 samples.

Results

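The 10 genes described here encode proteins that hold neighbouring epithelial cells together. They are the classical cadherins CDH1, CDH2 and CDH3, the catenins CTNNA1, CTNNB1, CTNND1 and JUP, and the desmosome proteins DSP, PKP2 and DSG2. They were taken by gene symbol from a table of 34595 genes with a value, and all 10 were present. RNA was measured on Illumina HT-12 v3 BeadChips in CD133+ and CD133- cells sorted from 3 established gastric cancer cell lines, KATO-III, SNU-216 and SNU-601. PROM1 encodes CD133, a membrane glycoprotein used as a marker of stem-like cancer cells. The labels name no drug or genetic change, and all cells were grown in RPMI1640 medium with calf serum and stained with a PE-labelled antibody against CD133/1 (AC133). The brightest 10% formed the CD133+ population and the dimmest 6% the CD133- population, so cells of intermediate staining are in neither. Each of the 6 populations was hybridized on 2 arrays, 12 in all. Whether the 2 arrays came from separate sorts is not stated in the sources used here, so the p-values measure only the spread between these arrays, which may be technical.

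Classical cadherins bind the same cadherin on the next cell through their outer domains. Inside the cell, beta-catenin or plakoglobin binds the cadherin tail and alpha-catenin links that complex to actin. Closer to the membrane, p120-catenin binds the tail and keeps the cadherin at the surface. Desmosomes are the neighbouring junction, in which desmogleins and desmocollins reach across the gap, plakoglobin and plakophilins form the plaque, and desmoplakin ties the plaque to keratin filaments. In stomach epithelium E-cadherin is the main adherens junction cadherin, and its inherited loss is a known cause of diffuse gastric cancer.

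The values are background-subtracted, quantile-normalized intensities on a linear scale, with 1 row per gene symbol, and the level of a gene was compared between arrays, not with the level of another gene. Intensities of different genes were added up only for the marker lists, where the brightest genes weigh most. Differences are on the log2 scale, after intensities under a floor of 32.7 were set to that floor. This is how far below 0 the 1st percentile of the whole table lies, a measure of the scatter that background subtraction leaves. A difference was called where the Benjamini-Hochberg adjusted p of limma, was under 0.05, adjusted over the 20147 genes that exceeded the floor on 2 arrays or more. All 10 genes passed that filter and 7 of them exceeded it on every array. The exceptions were CDH3 on 8 arrays, CTNND1 on 9 and CDH2 on 2. PROM1, the gene behind the sort, was higher in CD133+ cells by 1.10 in KATO-III, 2.02 in SNU-216 and 1.86 in SNU-601 on the log2 scale. Sorted cells were measured in bulk, so fewer cells with a transcript and less transcript per cell cannot be told apart.

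**Figure D1:**
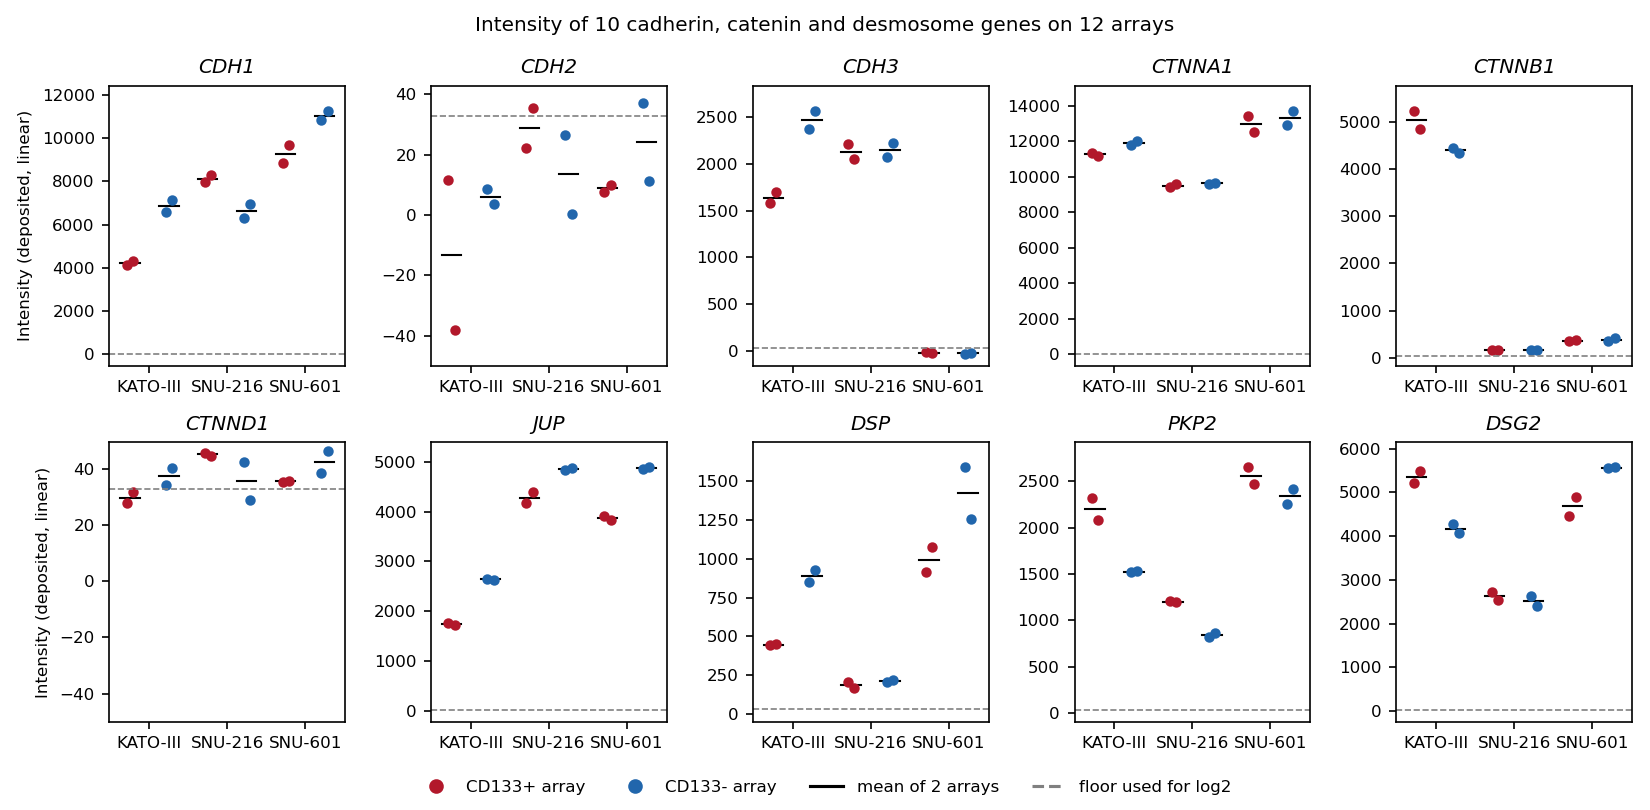
Deposited intensity (linear, vertical axis) of the 10 genes on each of the 12 arrays, by line and CD133 fraction, with black bars for the mean of 2 arrays and a dashed line for the floor of 32.7. CDH3 sits under the floor on the 4 SNU-601 arrays and CTNNB1 is far higher on the 4 KATO-III arrays than on the other 8, while every CDH2 array lies between -38.1 and 36.9.

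CDH1 encodes E-cadherin. In KATO-III its intensity was 4129 and 4314 on the CD133+ arrays and 6573 and 7142 on the CD133- arrays. In SNU-216 the CD133+ arrays gave 7961 and 8291 and the CD133- arrays 6281 and 6954. In SNU-601 the values were 8825 and 9695 in CD133+ cells against 10822 and 11254 in CD133- cells. The fractions did not overlap in any line, and CD133+ cells were the lower ones in KATO-III and SNU-601 and the higher ones in SNU-216. The difference, CD133+ minus CD133-, was -0.70 ± 0.07 (SE) in KATO-III (adjusted p 6.83e-05), 0.30 ± 0.07 in SNU-216 (adjusted p 0.0109) and -0.25 ± 0.07 in SNU-601 (adjusted p 0.0362). limma's test of whether the difference itself varied between lines gave an adjusted p of 0.000194. Over the lines together the difference was -0.22 ± 0.13, which was not called (adjusted p 0.308).

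E-cadherin RNA was present in all 6 populations, with SNU-601 CD133- cells highest and KATO-III CD133+ cells lowest. From the top the order ran SNU-601 CD133-, SNU-601 CD133+, SNU-216 CD133+, KATO-III CD133-, SNU-216 CD133- and KATO-III CD133+. Only KATO-III CD133- and SNU-216 CD133- were neighbours that limma did not separate (difference 0.05, adjusted p 0.594). Between whole lines, SNU-216 was 0.45 and SNU-601 0.91 above KATO-III on the log2 scale, and SNU-601 was 0.46 above SNU-216, all called. The SNU-601 difference between fractions is the least firm of these, since its adjusted p rose to between 0.0576 and 0.194 in 7 of the 12 fits that left out 1 array (either CD133+ array of KATO-III or SNU-216, either CD133- array of SNU-601, or SNU-601 CD133+ replicate 1). It also rose to 0.0567 with arrays centred on their medians, 0.101 without the filter on dim genes and 0.0823 without the variance trend. In SNU-216 the call was lost without CD133+ replicate 2 (adjusted p 0.0721) or CD133- replicate 1 (0.0807).

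CDH3 encodes P-cadherin, which is found in basal layers of stratified epithelia and in some carcinomas. Its KATO-III values were 1582 and 1697 in CD133+ cells and 2373 and 2569 in CD133- cells. Its SNU-216 values were 2208 and 2052 in CD133+ cells and 2069 and 2221 in CD133- cells. On the SNU-601 arrays it stood at -12.3 and -20.8 in CD133+ cells and at -27.1 and -17.2 in CD133- cells. P-cadherin RNA was thus measured in KATO-III and SNU-216 and lay under the floor throughout SNU-601. Set against the floor, it was at least 61.5-fold higher in KATO-III and at least 65.3-fold higher in SNU-216 than in SNU-601. These bounds follow the floor chosen, and with a floor of 100 they became 20.1-fold and 21.4-fold. Averaged over both fractions, KATO-III and SNU-216 did not differ beyond their spread (log2 difference 0.09, adjusted p 0.169). By fraction they were called apart in opposite directions. KATO-III CD133- cells exceeded SNU-216 CD133- cells by 0.20 (adjusted p 0.0382). SNU-216 CD133+ cells exceeded KATO-III CD133+ cells by 0.38 (adjusted p 0.00141).

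The CD133 fractions differed in CDH3 in KATO-III, where CD133+ cells were 1.51-fold lower, a log2 difference of -0.59 ± 0.07 (adjusted p 0.000209). In SNU-216 the fractions overlapped and the difference was -0.01 ± 0.07. In SNU-601 no difference can be given, since all 4 arrays were at the floor. The test of unequal differences between lines gave an adjusted p of 0.00191, and the SNU-601 difference of 0 that enters it comes from the floor. CDH3 and CDH1 are next to each other on chromosome 16 in the order of protein-coding genes of the RefSeq annotation (GRCh38.p14). In KATO-III both were lower in CD133+ cells, and in SNU-601 CDH1 was at its highest where CDH3 was under the floor. In SNU-216 CDH1 was higher in CD133+ cells (0.30, adjusted p 0.0109) while CDH3 was not called (-0.01). The part of their position in these values was not tested.

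CDH2 encodes N-cadherin, the cadherin of neural and many mesenchymal cells, whose gain at the expense of E-cadherin is often read as a mesenchymal shift. Its intensity ran from -38.1 to 36.9 with a median of 10.7. It rose above the floor on SNU-216 CD133+ replicate 2 (35.4) and on SNU-601 CD133- replicate 1 (36.9), and in neither population did the other array do so. No population therefore had a level of CDH2 above the scatter of the background, and no comparison called it.

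CTNNA1 encodes alpha-catenin, the link from the cadherin complex to actin. The KATO-III arrays gave 11313 and 11183 in CD133+ cells and 11762 and 12003 in CD133- cells. In SNU-216 the values were 9430 and 9563 against 9583 and 9657, and in SNU-601 they were 13416 and 12503 against 12895 and 13698. Among the 7 genes above the floor on all arrays this one moved least, with a largest difference between lines of 0.46 and between fractions of 0.08 on the log2 scale. No line separated the fractions (adjusted p 0.229, 0.891 and 0.710 in KATO-III, SNU-216 and SNU-601). All 3 lines were called apart from each other, with log2 differences from KATO-III of -0.27 in SNU-216 and 0.18 in SNU-601. In the order of populations, the step from KATO-III CD133+ to SNU-216 CD133- was the one neighbouring pair called (0.23, adjusted p 0.00231).

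CTNNB1 encodes beta-catenin, which binds the cadherin tail and also carries the Wnt signal to the nucleus. KATO-III arrays read 5225 and 4844 in CD133+ cells and 4443 and 4335 in CD133- cells. SNU-216 arrays read 165 and 157 in CD133+ cells and 171 and 165 in CD133- cells. SNU-601 arrays read 350 and 370 in CD133+ cells and 355 and 410 in CD133- cells. The lines formed 3 separate levels with no overlap, and the fractions hardly moved within a line. Relative to KATO-III the log2 difference was -4.84 ± 0.06 in SNU-216, 28.6-fold lower (adjusted p 3.83e-12), and -3.66 ± 0.06 in SNU-601, 12.7-fold lower (adjusted p 5.50e-11). SNU-601 was higher than SNU-216 by 1.17 ± 0.06 (adjusted p 6.4e-08). Across all tested genes, 97.1% had a largest difference between lines at or below that of CTNNB1.

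Between CD133 fractions CTNNB1 was not called in any line. In KATO-III both CD133+ arrays were above both CD133- arrays, with a difference of 0.20 ± 0.08 and an adjusted p of 0.0776. That adjusted p fell under the threshold on other scales, at 0.0487 with an offset of 100 in place of the floor and at 0.0415 with arrays centred on their medians, and also without SNU-601 CD133- replicate 1 (0.0360) or replicate 2 (0.0363). The differences were -0.07 (adjusted p 0.640) in SNU-216 and -0.09 (adjusted p 0.564) in SNU-601.

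CTNND1 encodes delta-catenin. It lay between 27.9 and 46.1 on all 12 arrays, at most slightly above the floor. KATO-III CD133+ cells were under the floor on both arrays (27.9 and 31.6) and SNU-216 CD133+ cells were the highest (45.7 and 44.6). No pair of lines and no pair of fractions was called, and none of its 5 neighbouring pairs of populations was separated. Values so near the background set no level for the gene.

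JUP encodes plakoglobin, also called gamma-catenin, which is the one catenin shared by adherens junctions and desmosomes. In KATO-III its values were 1774 and 1736 in CD133+ cells and 2642 and 2639 in CD133- cells. In SNU-216 they were 4160 and 4399 in CD133+ cells and 4822 and 4863 in CD133- cells. In SNU-601 they were 3909 and 3823 in CD133+ cells and 4852 and 4886 in CD133- cells. Both CD133+ arrays lay under both CD133- arrays in each of the 3 lines. The difference was -0.59 ± 0.04 in KATO-III (adjusted p 7.68e-06), -0.18 ± 0.04 in SNU-216 (1.13-fold, adjusted p 0.00826) and -0.33 ± 0.04 in SNU-601 (1.26-fold, adjusted p 0.000983). Its size varied between lines (adjusted p 0.00104). Over the lines it was -0.37 ± 0.06, with an adjusted p of 0.0164, which became 0.170 with population fitted as a random block and 0.796 when the arrays of each population were averaged first.

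JUP was the only one of the 10 genes called lower in CD133+ cells in all 3 lines, a pattern met by 0.427% of all tested genes. KATO-III had the lowest plakoglobin RNA of the lines. SNU-216 was 1.08 ± 0.03 and SNU-601 1.01 ± 0.03 above it on the log2 scale (adjusted p 8.58e-10 and 2.57e-09). SNU-601 lay under SNU-216 by a difference of -0.07, which was not called (adjusted p 0.0597) and whose call turned on the setting. It was called with arrays centred (-0.12, adjusted p 0.00528), a floor of 100 (0.0496), no filter on dim genes (0.0292) or quantile normalization repeated (0.0324). Their CD133- cells, at 4869 ± 24.4 and 4843 ± 28.9 (SD, n = 2), were the neighbours at the top of the order and were not separated (adjusted p 0.947), while every further step down to KATO-III CD133+ was called.

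DSP encodes desmoplakin, the link from the desmosome to keratin. In KATO-III it read 443 and 452 in CD133+ cells against 852 and 925 in CD133- cells. In SNU-216 it read 206 and 166 against 208 and 220. In SNU-601 it read 917 and 1073 against 1589 and 1256. As for JUP, CD133+ arrays were the lower ones in every line. The difference was -0.99 ± 0.14 in KATO-III (1.98-fold, adjusted p 0.000462) and -0.51 ± 0.14 in SNU-601 (1.42-fold, adjusted p 0.0346), and it was not called in SNU-216 (-0.21 ± 0.14, adjusted p 0.321). The size varied between lines (adjusted p 0.0252). Over the lines it was -0.57 ± 0.13 (adjusted p 0.0350).

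The desmoplakin calls in SNU-601 and over the lines were the least stable of the set. In SNU-601 the adjusted p lay between 0.0550 and 0.196 in 9 of the 12 fits without 1 array (any KATO-III array, either SNU-216 CD133- array, either SNU-601 CD133+ array, or SNU-601 CD133- replicate 1). Over the lines it lay between 0.0564 and 0.0918 in 8 of 12 (any KATO-III array, replicate 2 of either SNU-216 fraction, or replicate 1 of either SNU-601 fraction). Without the filter on dim genes the adjusted p was 0.111 in SNU-601 and 0.0886 over the lines, and without the variance trend it was 0.0537 in SNU-601. Over the lines it was 0.276 with the population as a random block, 0.796 with arrays of a population averaged and 0.0580 with the replicate number as a block. Between lines the steps were wider, with log2 differences from KATO-III of -1.66 ± 0.10 in SNU-216 and 0.91 ± 0.10 in SNU-601, so that SNU-601 exceeded SNU-216 by 2.57 ± 0.10, or 5.95-fold (adjusted p 1.29e-08). Neither SNU-601 CD133+ and KATO-III CD133- (adjusted p 0.404) nor the SNU-216 fractions were neighbours that could be separated.

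PKP2 encodes plakophilin 2, a plaque protein of desmosomes. KATO-III gave 2317 and 2084 in CD133+ cells and 1519 and 1530 in CD133- cells. SNU-216 gave 1206 and 1196 in CD133+ cells and 815 and 866 in CD133- cells. SNU-601 gave 2652 and 2471 in CD133+ cells and 2258 and 2422 in CD133- cells. Here CD133+ arrays were the higher ones in every line, opposite to JUP and DSP. The difference was 0.53 ± 0.06 in KATO-III (1.44-fold, adjusted p 0.000237) and 0.52 ± 0.06 in SNU-216 (1.43-fold, adjusted p 0.000476), against 0.13 ± 0.06 in SNU-601, which was not called (adjusted p 0.232). The test of unequal differences gave an adjusted p of 0.0100. Over the lines PKP2 was higher in CD133+ cells by 0.39 ± 0.08 (adjusted p 0.0233), and this call was lost without any single KATO-III array (0.0604 to 0.0623), narrowly without SNU-216 CD133+ replicate 1, and with population fitted as a random block (0.204).

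Plakophilin 2 RNA was lowest in SNU-216, with KATO-III 1.82-fold and SNU-601 2.44-fold above it (adjusted p 1.55e-07 and 9.08e-09). SNU-601 was 0.42 ± 0.05 above KATO-III (adjusted p 3.54e-05). The 3 highest populations, SNU-601 CD133+, SNU-601 CD133- and KATO-III CD133+, were not separated step by step (adjusted p 0.232 and 0.278). Below them KATO-III CD133-, SNU-216 CD133+ and SNU-216 CD133- followed, each called apart from the one before.

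DSG2 encodes desmoglein 2, the desmosomal cadherin of simple epithelia. KATO-III arrays gave 5216 and 5487 in CD133+ cells and 4271 and 4079 in CD133- cells. In SNU-216 they were 2725 and 2537 against 2629 and 2397, which overlap. In SNU-601 they were 4461 and 4905 against 5556 and 5578. CD133+ cells were thus the higher ones in KATO-III and the lower ones in SNU-601. The difference was 0.36 ± 0.07 in KATO-III (adjusted p 0.00229), 0.07 ± 0.07 in SNU-216 (adjusted p 0.550) and -0.25 ± 0.07 in SNU-601 (adjusted p 0.0315), and it varied between lines (adjusted p 0.00213). Without SNU-601 CD133+ replicate 1 or either SNU-601 CD133- array the SNU-601 call was lost (0.172, 0.111 and 0.120), and without either KATO-III CD133+ array it stood at 0.0520. It was lost as well with arrays centred (0.0561), without the filter on dim genes (0.0853) and without the variance trend (0.0762). SNU-216 was 1.84-fold under KATO-III and 1.99-fold under SNU-601 (adjusted p 1.47e-07 and 6.15e-08), while SNU-601 and KATO-III lay 0.11 apart (adjusted p 0.0675). That 0.11 averages fractions that differed in opposite directions. KATO-III CD133+ cells exceeded SNU-601 CD133+ cells by 0.19 (adjusted p 0.0315). Among CD133- cells SNU-601 was the higher, with means of 5567 and 4175.

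**Figure D2:**
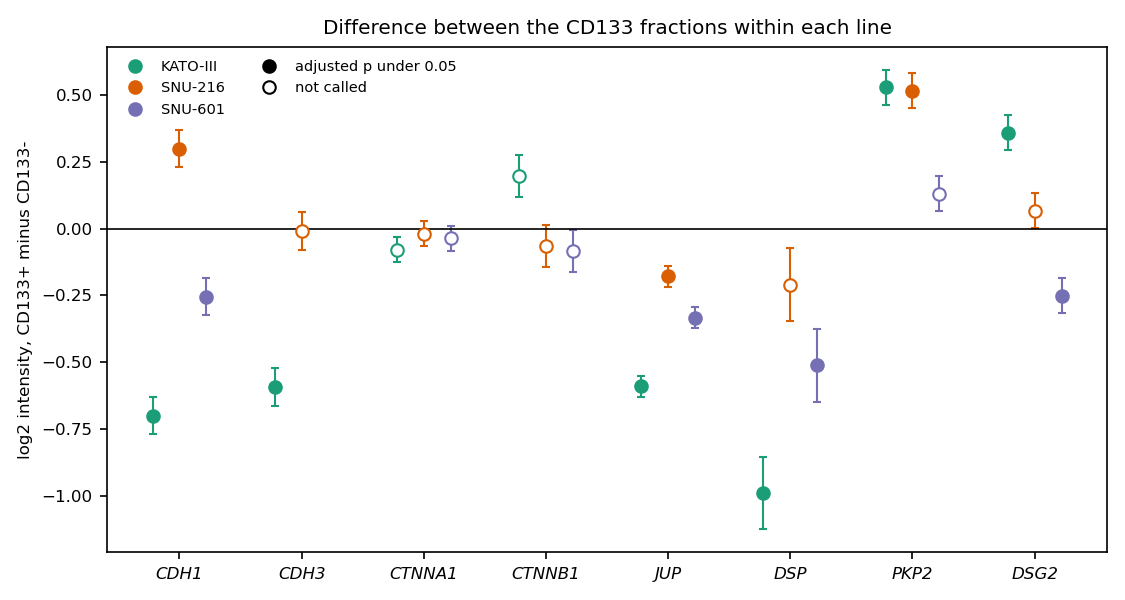
Log2 intensity of CD133+ minus CD133- cells (vertical axis) for the 8 genes above the background, in KATO-III, SNU-216 and SNU-601, with SE bars and filled points for differences called by limma. JUP is under 0 and called in all 3 lines, PKP2 is above 0 in all 3 and called in KATO-III and SNU-216, and CDH1 and DSG2 change sign between lines. The SNU-601 difference of CDH3 is not drawn because its arrays are at the floor.

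Counted over the 10 genes, the fractions differed in 6 genes in KATO-III, in 3 in SNU-216 and in 4 in SNU-601. In KATO-III, where 39.3% of all tested genes were called (18.7% higher and 20.6% lower), CDH1, CDH3, JUP and DSP were lower and PKP2 and DSG2 higher in CD133+ cells. In SNU-216, where 28.6% were called (14.6% higher and 14.0% lower), CDH1 and PKP2 were higher and JUP lower. In SNU-601, where 16.4% were called (8.59% higher and 7.78% lower), CDH1, JUP, DSP and DSG2 were lower and none was higher. The medians of the 10 log2 differences were -0.13, 0.02 and -0.17 in KATO-III, SNU-216 and SNU-601, where the median over all tested genes was 0 in each line. The SNU-601 count depended on single arrays. It was 1 without KATO-III CD133+ replicate 1 or 2, SNU-601 CD133+ replicate 1 or SNU-601 CD133- replicate 1, and 2 without SNU-601 CD133- replicate 2. The share of all tested genes called in SNU-601 fell too. It was 15.1% without either KATO-III array, and 10.8%, 11.0% and 10.9% without these SNU-601 arrays in turn.

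CDH1 and JUP were called in all 3 lines, as were 4.97% of all tested genes, and CDH1 was so in opposite directions, as were 3.91%. None of the 10 was called higher in all 3 lines, as 0.63% of tested genes were. CTNNA1, JUP, DSP and PKP2 had the same sign in every line (4 of 10, against 22.5% of all tested genes). The difference between fractions varied between lines for 6 of the 10 (CDH1, CDH3, JUP, DSP, PKP2 and DSG2), where 44.4% of all tested genes did. Over the lines together JUP and DSP were called lower and PKP2 higher, 3 of 10 against 4.73% of all tested genes (2.62% higher and 2.11% lower). That count fell to 1 without any single one of the 4 KATO-III arrays and to 0 when the arrays of each population were averaged or the population was a random block. Under the same settings the calls over all 20147 tested genes fell too, from 953 to between 217 and 268 without a KATO-III array, to 0 with averaged arrays and to 1 with the random block. The shares of all tested genes include dim genes, while 7 of the 10 genes exceeded the floor on every array. In a fit of only the 11674 such genes, 10.6% were called over the lines and 26.3% in SNU-601. Of these 11674, 6293 were called in KATO-III and 5169 in SNU-216, and the difference varied between lines for 7273. Arrays of the fractions did not overlap for 9 of the 10 genes in KATO-III, 7 in SNU-216 and 6 in SNU-601, where 63.1%, 54.9% and 49.3% of all tested genes did not. No gene of the 10 had all 6 CD133+ arrays on 1 side of all 6 CD133- arrays, which 0.476% of tested genes did. The signal-to-noise ratio over the 12 arrays, the difference of the means over the sum of the SDs, was -0.35 for JUP, -0.32 for DSP and 0.32 for PKP2, and none of the 10 passed 1 or -1, which 0.558% and 0.402% of all genes did.

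Between lines, 7 of the 10 genes were called in each pair. SNU-216 was higher than KATO-III in 2 genes and lower in 5, where 62.0% of tested genes were called (31.7% higher and 30.3% lower). SNU-601 was higher than KATO-III in 5 and lower in 2, where 58.6% were called (29.9% higher and 28.7% lower). CDH1, CTNNA1, CTNNB1, DSP and PKP2 were called in all 3 pairs, 5 of 10 against 32.9% of all tested genes. The largest difference between lines exceeded 2 on the log2 scale for CDH3, CTNNB1 and DSP, as for 14.2% of all tested genes, and exceeded 4 for CDH3 and CTNNB1, as for 4.53%. Against SNU-216, SNU-601 was higher in 6 genes (CDH1, CTNNA1, CTNNB1, DSP, PKP2 and DSG2) and lower in CDH3, where 56.5% of tested genes were called (27.1% higher and 29.4% lower). All arrays of a line lay apart from all of the other for 6 genes between SNU-216 and KATO-III, 5 between SNU-601 and KATO-III and 7 between SNU-601 and SNU-216, against 42.1%, 40.1% and 44.0% of all tested genes. These contrasts compare 3 lines, each with 4 arrays, and say nothing of other gastric lines. Of 50 neighbouring steps in the orders of the 6 populations, 22 were called, where 23.9% of such steps over all tested genes were, and in both cases the measured means set which populations are neighbours.

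**Figure D3:**
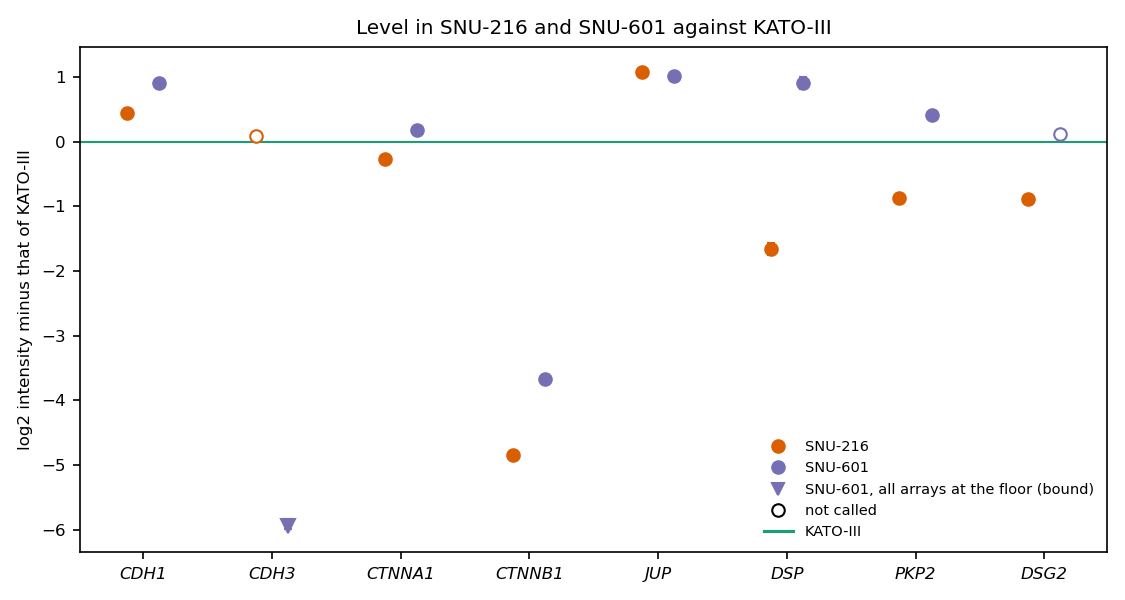
Log2 intensity of SNU-216 and SNU-601 relative to KATO-III (vertical axis, mean of both fractions, bars are SE and mostly smaller than the points) for the 8 genes above the background. CTNNB1 stands at -4.84 and -3.66, the triangle for CDH3 in SNU-601 is a bound set by the floor, and open points (CDH3 in SNU-216, DSG2 in SNU-601) were not called.

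The promoters of JUP and DSP are printed here because these were the junction genes lower in CD133+ cells over the lines. Snail, Slug and ZEB proteins, which repress E-cadherin, bind the E-box CACCTG. Of the 10 genes, 6 had promoters in the RefSeq table for GRCh38.p14 (CDH2, CTNNA1, CTNNB1, JUP, DSP and DSG2), and the 250 bases before each listed start were searched on both strands. Capitals mark the motif, which in DSP lies on the opposite strand and so reads CAGGTG. The first line is the outermost of the 2 listed JUP starts, chr17:41786712-41786961 on the minus strand, and the second is DSP, chr6:7541421-7541670 on the plus strand.
JUP: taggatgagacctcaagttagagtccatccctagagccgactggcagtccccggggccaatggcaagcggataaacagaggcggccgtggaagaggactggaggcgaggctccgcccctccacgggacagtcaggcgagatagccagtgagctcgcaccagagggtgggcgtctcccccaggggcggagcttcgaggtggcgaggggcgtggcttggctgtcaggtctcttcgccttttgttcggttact
DSP: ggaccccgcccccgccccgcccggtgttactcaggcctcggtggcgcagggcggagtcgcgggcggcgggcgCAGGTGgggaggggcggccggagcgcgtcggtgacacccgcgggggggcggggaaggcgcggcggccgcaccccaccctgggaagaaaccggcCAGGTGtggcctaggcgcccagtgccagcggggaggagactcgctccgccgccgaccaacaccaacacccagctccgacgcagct
The DSP window holds the motif 178 and 85 bases before the start, and the JUP window printed holds none. The window of the other JUP start holds it 54 and 43 bases before that start, and DSG2 holds it 232 and 116 bases before its start. Of 35116 promoters of the same length, 17.5% hold the motif, so a single match is common. The windows of DSP, DSG2 and the other JUP start each hold 2, and 2.53% of promoters hold 2 or more. These windows are 78.0%, 75.2% and 66.0% GC, where the median promoter is 58.0%. The windows of CTNNA1 (80.0%, 80.4%, 40.8% and 46.4% GC), CTNNB1 (74.4%) and CDH2 (66.0% and 42.0%) hold no match. The part of GC content in the matches was not tested. These are matches of letters, and the arrays did not measure binding.

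SNAI2, which encodes Slug, had RNA above the floor in SNU-216 alone. Its values there were mean intensities of 3083 in CD133+ and 2892 in CD133- cells, at least 91.3-fold above the other lines, or at least 29.8-fold with a floor of 100. TWIST1, another repressor of E-cadherin, was also highest there, at 239 ± 25.6 (SD, n = 2) in CD133+ and 629 ± 66.6 in CD133- cells, a difference of -1.39 (adjusted p 0.000274). GRHL2, an epithelial factor on the same list, was highest there too, with means of 2104 and 1620 against 326 to 659 elsewhere. Its differences between fractions were -0.24, 0.38 and -0.42 in KATO-III, SNU-216 and SNU-601 (adjusted p 0.0442, 0.00734 and 0.00829). CDH1 itself was higher in SNU-216 than in KATO-III (0.45) and lower than in SNU-601, which exceeded SNU-216 by 0.46 (adjusted p 2.23e-05). SNAI1, ZEB1, TWIST2 and KLF8 were above the floor on no array. Among 13 listed regulators of E-cadherin 7 could be tested, and CD133+ cells differed in 5 of them in KATO-III, 4 in SNU-216 and 2 in SNU-601. Of all tested genes, 39.3%, 28.6% and 16.4% were called in these lines. Between lines, SNU-216 was higher than KATO-III in 3 of the 7 and lower in 3, against 31.7% and 30.3% of all tested genes. OVOL2, an epithelial factor that represses ZEB genes, was the one called over the lines, lower in CD133+ cells (-0.40, adjusted p 0.0438). That call was lost in 9 of the 12 fits without 1 array (adjusted p up to 0.106), with arrays centred (0.0597), without the filter (0.123) or the trend (0.0675), with a replicate block (0.0672), with population as a random block (0.246) and with averaged arrays (0.796). KLF4, a gut differentiation factor that activates E-cadherin, was higher in CD133+ cells of KATO-III (0.43, adjusted p 0.0282) and SNU-216 (0.52, adjusted p 0.0154) and stood at -0.32 in SNU-601 (adjusted p 0.141).

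Among 20 other cadherins 12 were above the floor on no array and 8 were tested. CDH17, the liver-intestine cadherin, changed most. In KATO-III its mean was 1198 ± 23.2 (SD, n = 2) in the CD133+ fraction against 6741 ± 932 in the other, a difference of -2.49 (adjusted p 3.84e-07). In SNU-601 the means were 2944 and 6306, a difference of -1.10 (adjusted p 0.000225), while in SNU-216 all arrays were under the floor, at least 86.7-fold under KATO-III and at least 132-fold under SNU-601. With a floor of 100 these bounds were 28.3-fold and 43.1-fold. Over the lines the difference was not called (-1.20, adjusted p 0.0512). CDH15 (M-cadherin) was above the floor in SNU-601 alone, with means of 354 and 211 in CD133+ and CD133- cells (0.74, adjusted p 0.00391). CDH16 (kidney cadherin) was low, with its highest mean, 97.2, in SNU-601 CD133- cells.

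Of 12 other desmosome genes 9 were tested, and 4 were higher and 3 lower in CD133+ cells of KATO-III, 1 higher and 2 lower in SNU-216, and 3 lower in SNU-601. Calls over all tested genes came to 39.3%, 28.6% and 16.4% in these lines. limma called none over the lines, where it called 4.73% of all tested genes. An unadjusted p under 0.05 was met by 4, and the share of all tested genes meeting it was not counted. DSC2, a desmocollin, had differences of 0.39, 0.66 and -0.56 in KATO-III, SNU-216 and SNU-601 (adjusted p 0.0208, 0.00209 and 0.00951), so that, like DSG2, its sign in SNU-601 was opposite to that in KATO-III. DSG3, a desmoglein of stratified epithelia, was lower in CD133+ cells of KATO-III (-1.85, adjusted p 8.66e-06) and of SNU-601 (-0.92, adjusted p 0.00181), and it was under the floor in SNU-216. PERP, a desmosome-associated membrane protein, had means of 121 and 111 in SNU-216 and between 494 and 821 in the other populations. SNU-216 was the lowest of the 3 lines for DSP, PKP2, DSG2, DSC2, DSG3, PERP and PPL (periplakin). It was the highest for PKP3, a plakophilin, with means of 371 and 537 against 123 to 291 elsewhere, and for PNN (pinin), which was 0.80 above KATO-III while SNU-601 stood at -1.25 against SNU-216, both called. EVPL (envoplakin) lay between, higher in SNU-216 than in KATO-III (0.39, adjusted p 1.83e-05) and higher still in SNU-601 (0.59 above SNU-216), and DSC3 and DSG1 were not called between SNU-216 and KATO-III.

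Of 17 other catenins and adherens junction partners 15 were tested, with 4 higher and 2 lower in KATO-III, 2 higher and 1 lower in SNU-216, and 1 higher and 2 lower in SNU-601. Calls over all tested genes came to 39.3%, 28.6% and 16.4% in these lines. PVRL3, the adhesion protein nectin-3, had means of 37.9 and 7.16 in SNU-216 against 1524 to 3362 in the other lines, and was higher in CD133+ cells of KATO-III by 0.64 (adjusted p 0.000173). LMO7, which joins nectins to cadherins, was under the floor in SNU-216, at least 48.5-fold below SNU-601 (15.9-fold with a floor of 100). PVRL4 (nectin-4) was above the floor in SNU-601 alone, at 106 and 223, lower in CD133+ cells (-1.11, adjusted p 0.0047). All 8 genes of cadherin shedding and turnover were tested, to be read against the same shares of all tested genes. In CD133+ cells 3 were lower in KATO-III, and 1 was higher and 1 lower in SNU-216. None was called in SNU-601, where 2 had an unadjusted p under 0.05. NCSTN, a subunit of gamma-secretase, was lower in CD133+ cells of KATO-III (-0.89, adjusted p 1.69e-06), with means of 2884 and 5330. PSEN2, its catalytic partner, was lower there too (-0.40, adjusted p 0.00084), and CBLL1, the ligase Hakai that marks E-cadherin for removal, was lower in SNU-601 than in KATO-III (-1.29, adjusted p 1.01e-06). Over the lines none of the catenin partners or shedding genes was called, where 4.73% of all tested genes were. An unadjusted p under 0.05 was met by 3 and 1 of them. The shares of all tested genes with such an unadjusted p were not counted.

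**Figure D4:**
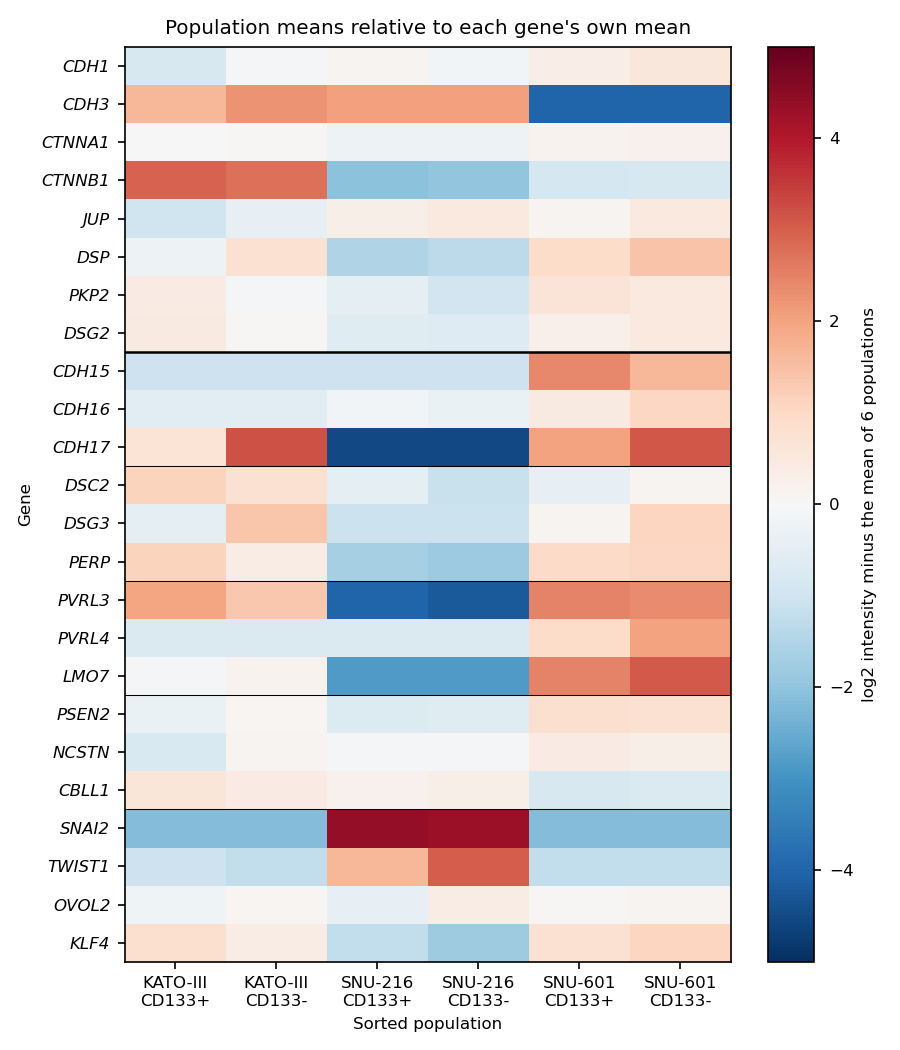
Mean log2 intensity of each of the 6 populations minus the gene's own mean over the populations (colour), for 8 of the 10 genes above the thick line and for named genes of the related lists below it. Columns are the sorted populations. SNAI2 and TWIST1 are high in SNU-216 alone, where CDH17, PVRL3 and LMO7 are low, and values at the floor are drawn at the floor.

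For the 7 members above the floor on every array, which leaves out CDH2, CDH3 and CTNND1, the genes with the most similar pattern over the 12 arrays are given by Pearson's r of log2 intensities among 11674 genes above the floor on all arrays. These arrays share 3 lines and 2 arrays per population, so high values are common and are a description. PIM1 (0.983) and COX15 (0.982) were closest to CDH1, followed by the transcript HS.371609 (0.981). NBL1 (0.987), ECM1 (0.987) and SYTL2 (0.986) were closest to CTNNA1. For CTNNB1 they were LOC729708 (0.992), TSR2 (0.990) and TAF1 (0.989). JUP was closest to PLEKHG3 (0.989), SNX6 (0.988) and ITGB4 (0.984), the last an integrin of hemidesmosomes. DSP was closest to ASMTL (0.992), DDR1 (0.990) and PTK6 (0.988). For PKP2 they were EPN2 (0.986), OSTC (0.985) and MUTED (0.982), and for DSG2 they were LANCL1 (0.988), PLS1 (0.988) and MRPS35 (0.986). Within the set, DSP and CTNNA1 (0.960), DSG2 and PKP2 (0.915) and PKP2 and CTNNA1 (0.868) ran most closely together, and JUP ran opposite to CTNNB1 (-0.915).

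The epithelial character of the cells was checked on 8 marker rows. TACSTD1 among them is an earlier symbol of EPCAM, so the sum of the list counts that gene in both rows. All but KRT20 exceeded the floor on every array. The 8 rows summed to 48635 to 62685 on CD133+ arrays and 48415 to 65123 on CD133- arrays, with KRT19, KRT8 and EPCAM weighing most. KRT20 exceeded the floor on 3 arrays and was lower in CD133+ cells of KATO-III (-2.87, adjusted p 2.34e-06). MUC1 had means of 197 and 258 in SNU-216 against 6304 to 8887 elsewhere. In CD133+ cells 1 row was higher and 2 lower in KATO-III, and 1 higher and 3 lower in SNU-216. None was called in SNU-601. The shares of all tested genes called were 39.3%, 28.6% and 16.4%. All 5 endothelial markers were under the floor on every array. Of 8 fibroblast markers COL3A1, DCN, THY1 and PDGFRB were under the floor on every array, and the list summed to 449 to 504 on KATO-III CD133+ arrays against 1045 to 1059 on CD133- arrays, where LUM had means of 78.0 and 763 (-3.31, adjusted p 1.73e-06). LUM carried that sum, since VIM (0.43, adjusted p 0.00567) and COL1A1 (0.84, adjusted p 0.00977) were higher in CD133+ cells of KATO-III. The sums were 637 to 662 against 599 to 628 in SNU-216 and 431 to 456 against 395 to 439 in SNU-601. LUM itself was higher in CD133+ cells of SNU-216 (0.90, adjusted p 0.00323), with means of 61.1 and -6.16. In SNU-601 it was under the floor on every array. Of 6 leukocyte markers PTPRC and CD3D were under the floor on every array, and the list summed lower on CD133+ than on CD133- arrays in each line (937 to 1015 against 1356 to 1405 in KATO-III, 232 to 268 against 438 to 466 in SNU-216, 1185 to 1357 against 1720 to 1759 in SNU-601). CD68, a lysosomal protein, was lower in CD133+ cells over the lines (-0.98, adjusted p 0.00868), in the same direction as JUP and DSP. CD68 was called in all 12 fits without 1 array and not with a floor of 100 (-0.53, adjusted p 0.0599), population as a random block (0.136) or averaged arrays (0.796). CD14 was lower in KATO-III (-0.53, adjusted p 0.00609). The part of LUM, CD14 and CD68 in the differences between fractions was not tested.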

How the data were processed

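The 12 arrays were assigned to 3 lines and 2 CD133 fractions by their labels, which name SNU-216 where the deposited design text names SNU201. The authors deposited linear intensities with background subtracted and quantile normalization applied in BeadStudio, with 1 row per gene symbol. The combination of probes into a row is not given in the sources used here. Of 34688 rows, 93 were empty, and 32.1% of values were at or below 0. Array medians ran from 26.0 to 27.1, and 16320 to 16474 genes were above the floor per array. Precision is limited by the number of arrays.

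From the deposited intensities, values under 32.7 were set to that floor and log2 intensities were taken. limma 3.58.1 in R 4.3.3 was fitted to 20147 genes with a mean per population and a mean-variance trend, for contrasts of fractions, lines and neighbouring populations and for the difference between lines. For the fit over the lines, the cell line was a block and the difference between fractions was the same for each line. Its residual spread therefore holds the variation of that difference between lines as well as the spread between arrays. For CDH1 the SE was 0.129 in this fit and 0.0688 within a line. Correlations, counts and figures were made with numpy 2.4.6, scipy 1.17.1, pandas 2.3.3 and matplotlib 3.10.9 under Python 3.11.15. Code was tested on simulated data. The members, the gene lists and the rules (all 10 members, 3 most alike genes per member above the floor on every array, the 3 widest ranging genes of each list plus any called over the lines, PROM1) were chosen with earlier results of these data known. PKP3, PNN, EVPL, PPL, DSC3, DSG1, SNAI1, ZEB1, TWIST2, KLF8 and GRHL2 were named after their values were seen, as were the epithelial, fibroblast and leukocyte markers singled out and the pairs of members that ran closely together. Alternatives covered the floor, an offset, the normalization, the filter, the trend, the treatment of replicate arrays and leaving out each array.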

Additional observations from a re-analysis of the deposited data

Results flagged for a closer look

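For 6 genes the difference between CD133+ and CD133- cells was not the same in KATO-III, SNU-216 and SNU-601, by limma's moderated F-test of the line by fraction interaction over all 12 arrays. The adjusted p was 0.000194 for CDH1, with log2 differences of -0.70, 0.30 and -0.25 in these lines. It was 0.00213 for DSG2, with 0.36, 0.07 and -0.25. In both genes the sign differed between lines. For JUP the adjusted p was 0.00104, with -0.59, -0.18 and -0.33, and for DSP it was 0.0252, with -0.99, -0.21 and -0.51, so that all values were under 0 and KATO-III was farthest from it. For PKP2 it was 0.0100, with 0.53, 0.52 and 0.13. For CDH3 it was 0.00191, with -0.59 in KATO-III, -0.01 in SNU-216 and arrays at the floor in SNU-601. Of all tested genes 44.4% passed this test. In a fit of only the 11674 genes above the floor on every array, 7273 passed it.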

How the results depend on the processing

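The 2 arrays per population limit every test here, and CDH2 and CTNND1 are limited by signal at the background. The count of 10 genes called in SNU-601 was 4, and it was 2 with arrays centred on their medians, 1 without the filter on dim genes, 1 without the trend, and 1 to 3 when 1 array was left out. The share over all genes was 16.4% in the main fit and 16.4%, 6.84% and 13.6% under the first 3 of these. With 1 array left out it ran from 10.8% to 15.8%. Over the lines the count was 3, and it was 0 with the arrays of a population averaged, 0 with population fitted as a random block, and 1 to 3 when 1 array was left out. The share over all genes was 4.73%, then 0% and 0.00496%, and 1.08% to 4.22% with 1 array left out. The other 8 counts stayed within 1.5 times their value under every alternative run. Replicate numbers did not pair the arrays (correlations of deviations between -0.01 and 0.03). With the number as a replicate block the counts over the lines and in SNU-601 were 2 and 4. The shares over all tested genes were 2.34% and 15.9%. DSP over the lines then had an adjusted p of 0.0580, the one call that changed for a single difference of the 10 genes. Of the single differences, none that was called reversed. Among those not called, signs turned for CDH2 over the lines (0.016 with arrays centred) and for CDH2 between SNU-601 and SNU-216 (-0.28 with a floor of 16, -0.054 with an offset of 100, -0.031 with arrays centred). With 1 array left out, CDH2 ran from -0.033 to 0.021 over the lines and from -0.029 to 0.059 between SNU-601 and SNU-216, CDH3 in SNU-216 from -0.063 to 0.043, CTNNA1 in SNU-601 from -0.088 to 0.014, CTNNB1 from -0.19 to 0.019 in SNU-601 and from -0.021 to 0.054 over the lines, and CTNND1 from -0.14 to 0.0055 over the lines and from -0.18 to 0.0088 between SNU-601 and SNU-216. Calls were gained for CTNND1 between SNU-216 and KATO-III without SNU-216 CD133- replicate 2 (0.0204), for DSG2 between SNU-601 and KATO-III without SNU-601 CD133+ replicate 1 (0.0317), and for JUP between SNU-601 and SNU-216 without SNU-216 CD133+ replicate 1 (0.0160) or either KATO-III CD133+ array (0.0414). Of the single differences, 784 kept direction and side of the threshold with 1 array left out, where 36 were lost and 7 gained, and 589 did so under the other alternatives, where 16 were lost and 6 gained. The cause of these changes was not tested.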
